A study of Mus musculus with 6 samples.

Results

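CC chemokines are small secreted proteins, named for a pair of adjacent cysteines near their N-terminus, that draw leukocytes along a concentration gradient by binding G protein-coupled receptors of the Ccr family. Inflammatory members are induced by cytokines and recruit monocytes, neutrophils and effector T cells, whereas homeostatic members guide lymphocytes and dendritic cells through lymphoid tissue. In mammary tissue they are best known for attracting macrophages to the developing gland and to tumors. The genes followed here are *Ccl2*, *Ccl5*, *Ccl6*, *Ccl7*, *Ccl8*, *Ccl9*, *Ccl11*, *Ccl19*, *Ccl20* and *Ccl22*, taken from the expression table by their symbols. That table of 15280 genes held 9 of these 10, and *Ccl19* was not analysed here.

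RNA-Seq libraries were compared from 3 mammary tumors (T) and from the adjacent normal mammary glands (M) of the same 3 female BK5.ATF3 mice, so that n = 3 for each tissue. A library is named by its tissue and its mouse (M11035 and T11035, M11640 and T11640, M9232 and T9232), and values are given in this order. The bovine cytokeratin-5 promoter of the transgene directs ATF3, a stress-induced transcription factor, to basal epithelial cells. Gland and tumor libraries were both transgenic, with no wild-type tissue among them, and each mouse had raised 1 litter. Tumors in this line appeared at 6 to 12 months of age and were taken at a length of 1.5 cm, and the age of each of the 3 mice was not given in the sources used here. Values are normalized counts in CPM, that is, the fragments on a gene relative to the scaled fragment total of its library. Each library held between 4750989 and 7806908 fragments on genes, and 3 fragments, the floor used for detection, corresponded to between 0.393 and 0.610 CPM. Floors and counting intervals cover counting error only, since PCR copies of a fragment are not independent molecules.

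The endogenous and transgenic transcripts of *Atf3* were not separated in the table. *Atf3* was at 4.47, 8.09 and 22.6 CPM in the glands and at 13.4, 18.3 and 19.3 CPM in the tumors, and was not called different (log2 fold change 0.80, SE 0.49, adjusted p = 0.223, limma). The tumors carried the keratin transcripts of squamous epithelium (8 of the 8 squamous markers in the table were higher, with a summed 2202 to 3743 CPM against 8.92 to 9.71 CPM in the glands), and the glands carried fat cell transcripts (8 of 8 adipocyte markers were lower in tumors). Gland libraries stood apart from each other. Skeletal muscle markers summed to 3781 CPM in M11035, 1473 CPM in M11640 and 6.84 CPM in M9232, and M11035 had the highest B cell and T cell marker sums and the lowest macrophage marker sum of the 3 glands. For ligands, receptors, inducers and processing genes, calls that depend on that gland are therefore also given without it. Among the cell markers, the calls of *Itgax*, *Cd83*, *Cd207*, *Il7r*, *Mpo* and *Krt19* were lost without M11035, and *Thy1* became called higher.

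The stretch of DNA just before a gene's start shows which recognition sequences for inflammatory transcription factors lie close to it. RefSeq promoter sequences (GRCm38.p6) were found for 5 of the 9 genes, namely *Ccl6*, *Ccl8*, *Ccl9*, *Ccl20* and *Ccl22*. A subset is printed, in the orientation of the gene and ending at the base before its start, because they belong to a gene called higher in tumors (*Ccl20*), a gene called lower (*Ccl22*) and a gene whose increase stayed below the threshold (*Ccl9*). The lines show *Ccl20* at chr1:83116516-83116765 (plus strand), *Ccl22* at chr8:94745434-94745683 (plus strand) and *Ccl9* at chr11:83578637-83578886 (minus strand), with motif matches in capitals.
Ccl20: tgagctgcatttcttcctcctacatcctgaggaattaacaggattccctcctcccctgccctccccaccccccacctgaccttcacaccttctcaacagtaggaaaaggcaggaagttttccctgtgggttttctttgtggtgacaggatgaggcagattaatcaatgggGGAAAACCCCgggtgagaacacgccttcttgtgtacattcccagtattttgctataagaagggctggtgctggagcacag
Ccl22: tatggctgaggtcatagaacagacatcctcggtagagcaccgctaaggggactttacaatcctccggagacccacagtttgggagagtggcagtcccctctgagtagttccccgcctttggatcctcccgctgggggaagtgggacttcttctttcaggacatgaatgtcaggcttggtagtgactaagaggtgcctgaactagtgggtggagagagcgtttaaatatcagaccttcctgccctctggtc
Ccl9: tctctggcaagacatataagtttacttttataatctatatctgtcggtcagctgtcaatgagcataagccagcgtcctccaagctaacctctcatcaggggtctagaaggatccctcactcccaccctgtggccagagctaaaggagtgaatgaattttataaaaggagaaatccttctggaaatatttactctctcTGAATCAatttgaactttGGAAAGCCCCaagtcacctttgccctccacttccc

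The motifs searched on both strands of these 250 bases were the NF-κB consensus, AP-1 (TGANTCA), CRE (TGACGTCA) and the STAT6 motif. The *Ccl20* window held 1 NF-κB match at -80 to -71 from the start. The *Ccl9* window held 1 NF-κB match at -35 to -26 and 1 AP-1 match at -53 to -47. The windows of *Ccl22*, *Ccl6* and *Ccl8* held none of the 4 motifs. Of 32851 windows of the same length in the RefSeq table, 7.25% held the NF-κB consensus, 6.75% AP-1, 1.55% CRE and 5.85% the STAT6 motif. A match is a run of letters and was not shown to be bound.

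A gene was called higher or lower in tumors at an adjusted p of at most 0.05 (limma's moderated test on log2(CPM + 0.5), Benjamini-Hochberg over 15280 genes) and a change of at least 2-fold. On this scale fold changes of low genes are understated. For a single gene, an exact two-sided permutation test of 3 tumors against 3 glands cannot go below p = 0.1. Of the 9 CC chemokines, 3 were called higher in tumors (*Ccl2*, *Ccl7* and *Ccl20*), where 14.5% of all genes were. *Ccl5* and *Ccl22*, or 2 of 9, were called lower, where 13.7% of all genes were. Called in either direction were thus 5 of 9, against 28.2% of all genes. In the same 5 genes no tumor overlapped a gland, and this was true of 54.0% of all genes, so a lack of overlap was about as frequent among the chemokines as elsewhere. The median log2 fold change was 0.43 over the 9 genes and -0.0028 over all genes.

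*Ccl2* and *Ccl7*, monocyte chemoattractants that signal through Ccr2, rose together in the tumors of all 3 mice. *Ccl2* (mm9, chromosome 11, 81849073 to 81850955) was at 3.86 CPM in gland M11035, 3.14 in M11640 and 6.02 in M9232, and at 20.5, 21.6 and 34.5 CPM in the tumors of the same mice. The lowest tumor was above the highest gland. The mean rose from 4.34 ± 1.50 CPM (SD, n = 3) to 25.5 ± 7.77 CPM, a log2 fold change of 2.43 (SE 0.30, 5.39-fold, adjusted p = 3.14e-04, limma). Mouse by mouse, the log2 difference between tumor and gland of *Ccl2* was 2.26, 2.60 and 2.42.

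*Ccl7* (mm9, chromosome 11, 81859214 to 81861027), the next gene along the chromosome, was at 0.610, 2.15 and 3.97 CPM in the glands and at 21.0, 15.99 and 27.6 CPM in the tumors. Gland M11035 was lowest, with only 3 fragments, and no tumor overlapped a gland. The mean rose from 2.24 ± 1.68 CPM to 21.5 ± 5.81 CPM (SD, n = 3), a log2 fold change of 3.19 (SE 0.47, 9.12-fold, adjusted p = 9.28e-04, limma). Within mice the log2 difference of *Ccl7* was 4.28 in the mouse of M11035 and 2.64 and 2.65 in the other mice. *Ccl2* and *Ccl7* were called in each of the 14 alternative settings, with log2 fold changes between 2.20 and 2.67 and between 2.65 and 3.65. Their closest match to another gene's transcript was each other, at 72.0% identity over 257 bp, and none of the 9 genes overlapped an exon of another gene in the table.

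*Ccl20*, the ligand of Ccr6 and a product of inflamed epithelium, was the scarcest of the 9. It had 0, 0 and 2 fragments in the glands and 3, 10 and 10 in the tumors, equal to 0, 0 and 0.274 CPM against 0.558, 1.31 and 1.50 CPM. All 3 tumors were above the glands, but tumor T11035 was only at the floor of detection. The log2 fold change was 1.44 (SE 0.43, adjusted p = 0.0271, limma), and the ratio of the summed fragments, scaled for depth, was 10.7 with an exact 95% counting interval of 2.64 to 93.5. The call of *Ccl20* was lost without M11035 (adjusted p = 0.0675), M11640 (0.0754), T11640 (0.0791) or T9232 (0.0824), and with a pseudocount of 1, where the log2 fold change was 0.94. Over the alternatives its adjusted p ranged from 0.0154 to 0.0824.

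*Ccl5* and *Ccl22* moved the other way. *Ccl5* (mm9, chromosome 11, 83339280 to 83344020), made largely by activated T cells and NK cells and recognized by Ccr1 and Ccr3 among its receptors, was at 48.4, 17.7 and 30.4 CPM in the glands and at 0.744, 1.83 and 3.90 CPM in the tumors. Every gland was above every tumor, and the tumor values rested on 4, 14 and 26 fragments. The mean fell from 32.1 ± 15.4 CPM to 2.16 ± 1.60 CPM (SD, n = 3), a log2 fold change of -3.69 (SE 0.50, 12.9-fold lower, adjusted p = 5.43e-04, limma). The mouse of M11035 had both the highest gland and the lowest tumor, and its log2 difference of -5.30 stood beside -2.96 and -2.81 in the other mice.

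*Ccl22* (mm9, chromosome 8, 97269490 to 97275599), a dendritic cell and macrophage product that attracts Ccr4-bearing regulatory and type 2 helper T cells, was at 62.6, 31.4 and 39.0 CPM in the glands. In the tumors it was at 4.84, 7.73 and 5.69 CPM, so that the groups lay far apart and M11035 was again the highest gland. The mean fell from 44.3 ± 16.3 CPM to 6.09 ± 1.49 CPM (SD, n = 3), a log2 fold change of -2.73 (SE 0.29, 6.63-fold lower, adjusted p = 1.43e-04, limma). *Ccl5* and *Ccl22* were called in all 14 alternative settings, including the fit without M11035. *Ccl17*, which shares the receptor Ccr4 and lies near *Ccl22* on chromosome 8, was at 2.24, 0.991 and 1.50 CPM in the glands and 0.930, 1.18 and 0.450 CPM in the tumors and was not called (log2 fold change -0.61, adjusted p = 0.239, limma).

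Most B cell and T cell markers were called lower in the same tumors. B cell markers summed to 870, 344 and 557 CPM in the glands and to 16.4, 16.9 and 16.5 CPM in the tumors, with 9 of 9 markers called lower and *Pax5* at 0 in T11640 and T9232. T cell markers summed to 835, 327 and 679 CPM in the glands and to 116, 134 and 178 CPM in the tumors, with 11 of 12 called lower and none at 0. The call of *Il7r* was lost without M11035 (adjusted p = 0.140, limma) and in several other settings. Of 9 dendritic cell markers, 7 were called lower and 1 (*Itgax*) higher, and their sum was 150 to 185 CPM in glands and 92.5 to 123 CPM in tumors. Without M11035, *Itgax* (adjusted p = 0.0666, limma), *Cd83* (0.0745) and *Cd207* (0.0799) were not called. Markers of lymph node stroma summed to 250 to 948 CPM in the glands and 9.49 to 67.9 CPM in the tumors, 2 of 3 being called lower. *Glycam1* alone held 689, 208 and 850 CPM of the gland sums, so these mostly followed that gene, and its cell source was not tested. *Cxcl13* was not called (adjusted p = 0.0611, limma). *Chst4* was at 0 in all 3 tumors but had only 18, 4 and 11 fragments in the glands. The part of these cells in the lower *Ccl5* and *Ccl22* was not tested, and in bulk tissue fewer cells of a type and less RNA per cell cannot be told apart.

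**Figure D1:**
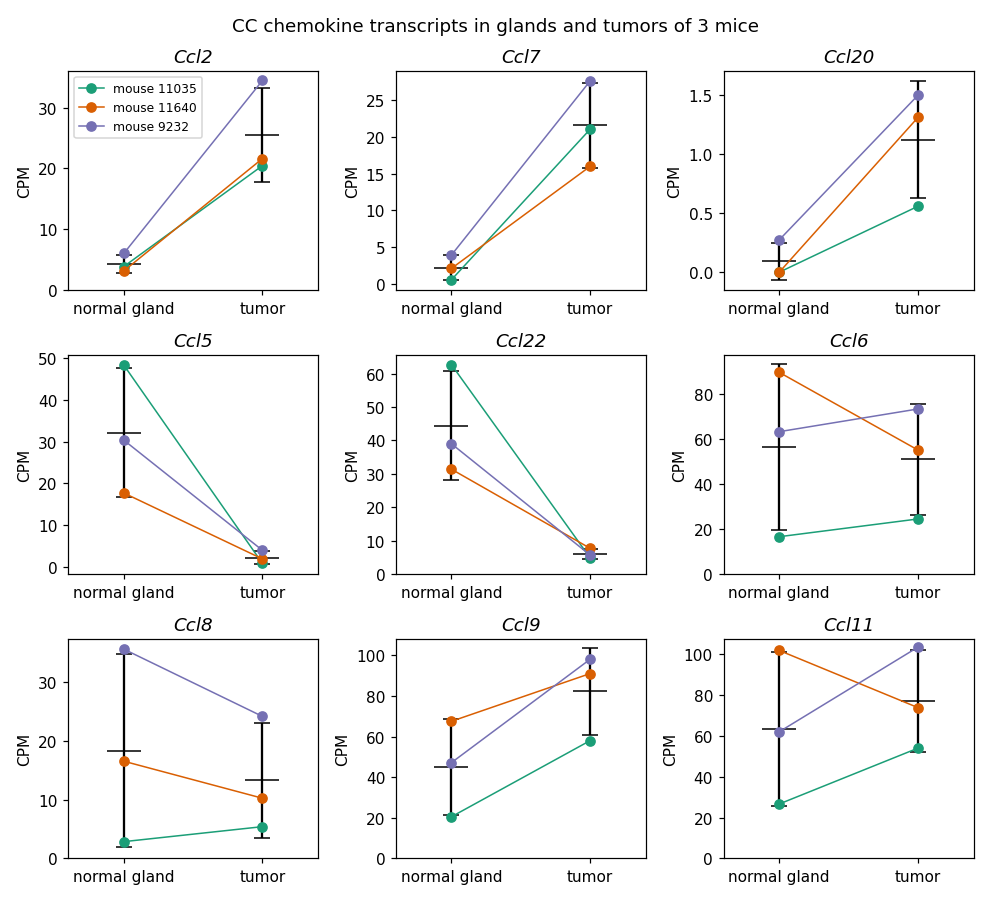
Transcript level in CPM (vertical axis, linear, a scale of its own for each gene) of the 9 CC chemokines in the normal gland and the tumor, with 1 point per library and a line joining the libraries of a mouse. Every line of Ccl2, Ccl7 and Ccl20 climbs and every line of Ccl5 and Ccl22 drops, while the lines of Ccl6, Ccl8 and Ccl11 run in both directions.

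The remaining 4 genes were not called, and each varied widely among the glands. *Ccl9*, a ligand of Ccr1 expressed by macrophages and other myeloid cells, was at 20.5, 67.6 and 47.2 CPM in the glands and at 58.1, 91.1 and 98.1 CPM in the tumors. Tumor T11035 was below gland M11640, so the groups overlapped, although the tumor was above the gland in every mouse (log2 difference 1.48, 0.43 and 1.05). The mean was 45.1 ± 23.6 CPM in glands and 82.4 ± 21.4 CPM in tumors (SD, n = 3), with a log2 fold change of 0.98 (SE 0.40, 95% interval 0.07 to 1.90, adjusted p = 0.0808, limma). With the mouse as a block the SE of *Ccl9* was 0.22 and the adjusted p 0.0116, which passes the p threshold but not the fold threshold. Without M11640 it was called (log2 fold change 1.35, adjusted p = 0.0256). A stretch of 136 bp of the *Ccl9* transcript was 95.6% identical to *Gjc3*.

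*Ccl6*, another Ccr1 ligand of macrophages, was at 16.7, 89.7 and 63.3 CPM in the glands and at 24.6, 55.2 and 73.4 CPM in the tumors. The tumor was higher than the gland in the mice of T11035 and T9232 and lower in that of T11640. The log2 fold change was 0.02 (SE 0.61, 95% interval -1.36 to 1.41, adjusted p = 0.982, limma), an interval wide enough to hold a change of more than 2-fold either way. The sign of so small a value turned under 6 of the 14 alternatives.

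*Ccl11*, the eosinophil attractant eotaxin and a product of stromal fibroblasts, was at 26.6, 101.7 and 62.0 CPM in the glands and at 54.0, 73.8 and 103.4 CPM in the tumors. Its range in the glands enclosed most of its range in the tumors (log2 fold change 0.43, SE 0.44, 95% interval -0.59 to 1.44, adjusted p = 0.472, limma). Without M11035 the estimate was -0.09. *Ccl8*, a monocyte chemoattractant protein that in mice acts through Ccr8, was at 2.85, 16.5 and 35.6 CPM in the glands and at 5.40, 10.2 and 24.1 CPM in the tumors. The mice kept the same order in both tissues, with M11035 and T11035 lowest and M9232 and T9232 highest, and the log2 fold change was -0.13 (SE 0.82, 95% interval -2.01 to 1.74, adjusted p = 0.914, limma). The sign for *Ccl8* turned without M11640, M9232 or T11035 (log2 fold changes of 0.08, 0.62 and 0.35).

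M11035 and T11035 had the lowest values of their tissues for *Ccl6*, *Ccl8*, *Ccl9* and *Ccl11*. Gland M11035 also had the lowest sum of macrophage markers (1192 CPM against 2243 and 4165 CPM), and tumor T11035 the lowest among tumors (1441 CPM against 2724 and 2694 CPM). Of the 12 macrophage markers, 1 was called higher in tumors (*Itgam*, log2 fold change 1.52) and 1 lower (*Cd163*, -2.28), and none was at 0 in any library. The call of *Cd163* was lost without M11640 (adjusted p = 0.0801, limma), M9232 (0.0597), T11035 (0.110) or T11640 (0.0874). *Lyz2* alone held 816, 1272 and 2982 CPM of the gland sums and 723, 1752 and 1609 CPM of the tumor sums. Eosinophil and mast cell markers summed to 30.3, 122 and 70.4 CPM in the glands and 4.28, 8.26 and 19.9 CPM in the tumors. The 5 of 8 called lower were mast cell genes (*Cpa3*, *Mcpt4*, *Cma1*, *Tpsb2* and *Ms4a2*). The call of *Cma1* was lost without M11640, T11035 or T11640. That of *Ms4a2*, with only 3, 8 and 13 fragments in the glands, was lost with a pseudocount of 1 and without M11640, M9232, T11035 or T11640. *Cpa3* alone held 18.1, 68.9 and 36.5 CPM of the gland sums. The eosinophil genes *Siglecf* (listed as *Siglec5*) and *Il5ra* were not called (log2 fold changes 0.87 and -0.57), and neither were *Fcer1a* and *Ccl11*. *Mcpt4* and *Ms4a2* were at 0 in T11035 and *Fcer1a* in T11640. The part of macrophages, eosinophils and mast cells in the chemokine values was not tested.

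**Figure D2:**
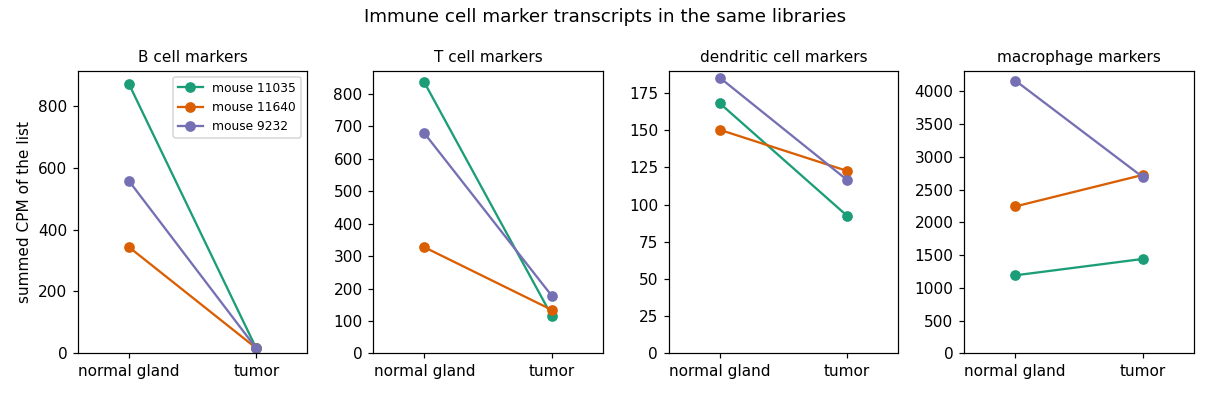
Summed CPM of immune cell marker lists (vertical axis, linear from 0) in the gland and the tumor of each mouse, with 1 point per library and a line per mouse. The B cell sums drop to 16.4 to 16.9 CPM in all tumors, whereas the macrophage sums of glands (1192 to 4165 CPM) and tumors (1441 to 2724 CPM) overlap.

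The chemokines that rose and those that did not are neighbors on the chromosome. *Ccl2*, *Ccl7*, *Ccl11*, *Ccl12* and *Ccl8* lie in this order within 81.2 kb of chromosome 11 (mm9), and *Ccl5*, *Ccl9*, *Ccl6*, *Ccl3* and *Ccl4* within 138.9 kb, 1.41 Mb further along. In the first cluster, *Ccl2*, *Ccl7* and *Ccl12* were called higher, and *Ccl11* (chromosome 11, 81871325 to 81876457), between *Ccl7* and *Ccl12*, was not called, nor was *Ccl8* at the end (81928687 to 81930301). In the second cluster, *Ccl5* was called lower, *Ccl9* (83386421 to 83392138) and *Ccl6* (83401384 to 83406589) were not called, and *Ccl3* and *Ccl4* were called higher. *Ccl20* is on chromosome 1 (83113341 to 83115742).

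**Figure D3:**
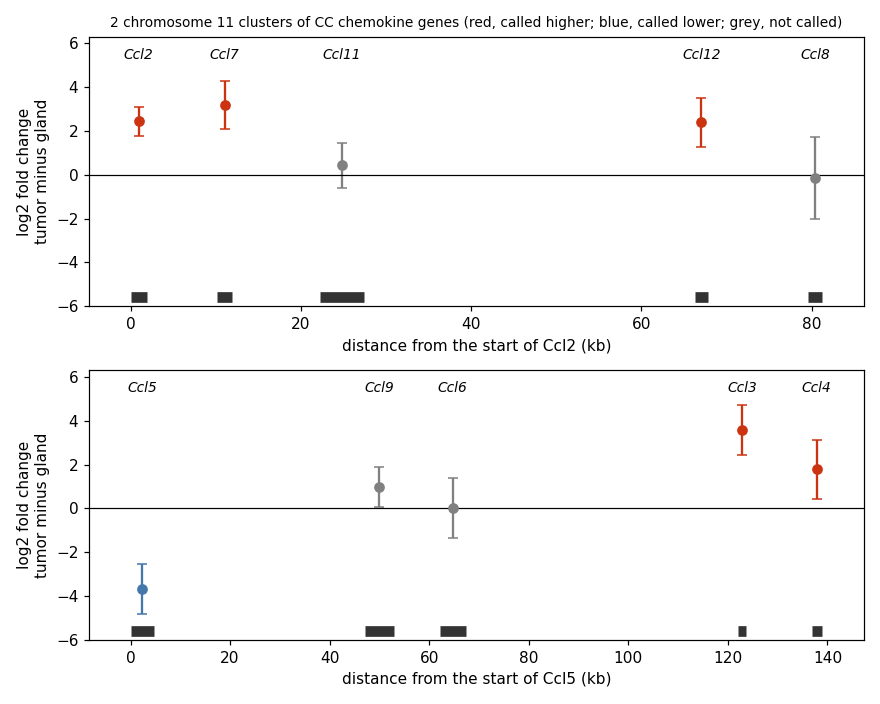
Log2 fold change of tumor minus gland (vertical axis) against the distance in kb from the start of the first gene (horizontal axis) for the 5 genes of each chromosome 11 cluster. Genes called higher stand beside genes not called in the first cluster, and the second cluster runs from Ccl5 at -3.69 to Ccl3 at 3.58.

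Of 14 further CC chemokines, 8 were in the table, of which 3 were called higher and 0 lower in tumors (14.5% and 13.7% of all genes). Their median log2 fold change was -0.18. *Ccl3*, a macrophage and neutrophil product that binds Ccr1, was at 0.407, 0.661 and 2.33 CPM in the glands and at 9.30, 18.7 and 26.4 CPM in the tumors (log2 fold change 3.58, SE 0.50, adjusted p = 6.74e-04, limma). All tumors were above all glands. *Ccl12*, a Ccr2 ligand found in mice, was at 3.86, 3.14 and 14.4 CPM in the glands and 24.0, 36.8 and 37.2 CPM in the tumors (log2 fold change 2.40, SE 0.49, adjusted p = 0.00479, limma).

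*Ccl4*, a macrophage inflammatory protein related to *Ccl3*, was at 0.407, 0.165 and 0.821 CPM in the glands and 1.30, 1.70 and 7.64 CPM in the tumors. Its call (log2 fold change 1.78, adjusted p = 0.0393, limma) was lost without M11035 (0.0770), M11640 (0.109), T11640 (0.0585) or T9232 (0.0958). The eotaxin *Ccl24* was at 0.203, 3.47 and 2.05 CPM in the glands, at 0 in tumors T11035 and T11640 and at 0.300 CPM in T9232. The test did not call *Ccl24* (adjusted p = 0.0591, limma), and the ratio of its summed fragments in glands over tumors was 19.9 with an exact 95% counting interval of 5.14 to 170.5. *Ccl24* was called lower by edgeR (adjusted p = 0.0303) and DESeq2 (0.0154) and without M11035 (0.00488). *Ccl28*, an epithelial chemokine of mucosae and the lactating gland, had a log2 fold change of -1.29 (adjusted p = 0.144) and was called only without M11035 (-1.85, adjusted p = 0.0441). *Ccl25* and *Ccl27a* were not called (log2 fold changes 0.21 and -0.57), and the value of *Ccl27a* is uncertain, since it overlaps *Il11ra1* and its transcript is 99.4% identical to *Gm13306* over 464 bp. *Ccl1*, *Ccl21a*, *Ccl21b*, *Ccl21c*, *Ccl26* and *Ccl27b* were not analysed here.

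Because long transcripts collect more fragments, levels of different chemokines were compared per kb of exon, for the 16 ligands with an mm9 transcript. *Ccl28*, at 2.85, 5.45 and 18.9 CPM in the glands and 5.21, 1.83 and 1.50 CPM in the tumors, was left out for want of one. In the glands, the order of mean level among the 9 was *Ccl11* (58.6 ± 34.7 CPM per kb, SD, n = 3), *Ccl8* (35.8 ± 32.2), *Ccl5* (33.5 ± 16.1), *Ccl6* (31.5 ± 20.6), *Ccl22* (19.1 ± 7.01), *Ccl9* (14.8 ± 7.74), *Ccl2* (3.81 ± 1.32), *Ccl7* (2.80 ± 2.10) and *Ccl20* (0.0642 ± 0.111). The order of the means was not that of each gland, since *Ccl11* led only in M11640, while *Ccl5* led in M11035 (50.4 CPM per kb against 24.6 for *Ccl11*) and *Ccl8* in M9232 (69.6 against 57.3). Neighbors in the order of the means overlapped in their libraries, except *Ccl9* with *Ccl2* and *Ccl7* with *Ccl20*. In the tumors the order was *Ccl11* (71.2 ± 23.0 CPM per kb), *Ccl6* (28.4 ± 13.8), *Ccl9* (27.1 ± 7.03), *Ccl7* (26.9 ± 7.25), *Ccl8* (25.9 ± 19.0), *Ccl2* (22.4 ± 6.83), *Ccl22* (2.62 ± 0.640), *Ccl5* (2.25 ± 1.67) and *Ccl20* (0.790 ± 0.350). Here the gaps without overlap were those between *Ccl11* and *Ccl6* and between *Ccl2* and *Ccl22*.

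The make-up of the transcripts of these 16 ligands differed between the tissues in every mouse. Of the summed level per kb of the 16 ligands, the Ccr2 ligands *Ccl2*, *Ccl7* and *Ccl12* together held 7.98%, 4.52% and 13.5% in the glands and 43.7%, 36.6% and 33.0% in the tumors. *Ccl5* and *Ccl22* together held 54.4%, 12.8% and 17.6% in the glands and 1.404%, 1.78% and 1.60% in the tumors. The share of *Ccl11* was 17.3% to 37.7% in glands and 23.2% to 24.5% in tumors, with the tumors inside the range of the glands. The sum over all 16 was 142, 250 and 274 CPM per kb in the glands and 203, 294 and 406 CPM per kb in the tumors, so the ranges overlapped, although the tumor was above the gland in each of the 3 mice.

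**Figure D4:**
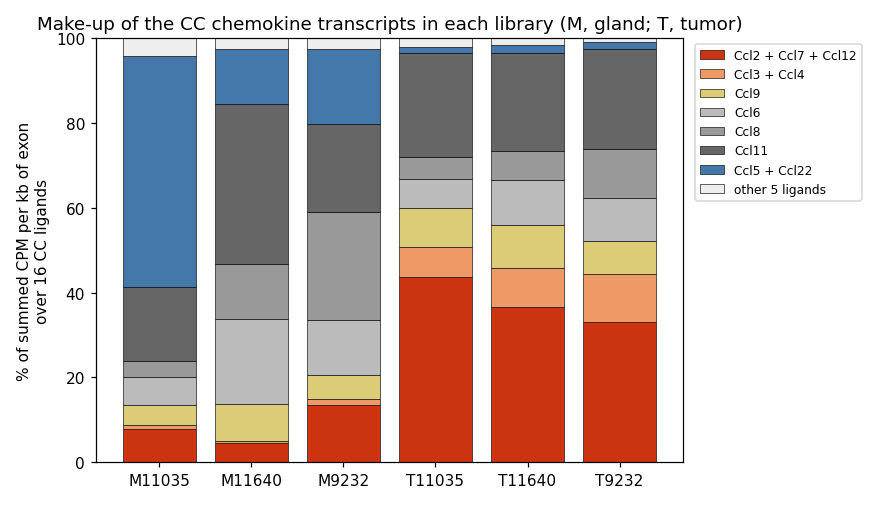
Stacked bars of each ligand group's percent of the summed CPM per kb of exon over 16 CC ligands (vertical axis) in each of the 6 libraries. The bar part of Ccl2, Ccl7 and Ccl12 covers 33.0% to 43.7% in the tumors and 4.52% to 13.5% in the glands, and that of Ccl5 and Ccl22 shrinks to at most 1.78% in the tumors.

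Receptors for these ligands also moved in both directions. Of the 11 CC receptors examined, 9 were in the table, with 2 called higher, 3 lower and a median log2 fold change of -0.76. Over all genes, 14.5% were called higher and 13.7% lower. *Ccr8* and *Ccr1l1* were not analysed here. *Ccr1*, the myeloid receptor of *Ccl5*, *Ccl6*, *Ccl7* and *Ccl9*, was at 2.64, 8.09 and 4.79 CPM in the glands and at 51.9, 49.1 and 59.9 CPM in the tumors (log2 fold change 3.37, SE 0.34, adjusted p = 1.07e-04, limma). For *Ccr1* the tumors lay well above the glands, opposite in direction to its ligand *Ccl5*. *Ccrl2*, a chemerin-binding receptor that does not signal, was called higher (log2 fold change 1.63, adjusted p = 0.0287, limma), but not without M11035 (0.0620), T11640 (0.0798) or T9232 (0.111), each of which left 1 receptor called higher.

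*Ccr2*, the receptor of *Ccl2*, *Ccl7* and *Ccl12* on inflammatory monocytes, was at 68.9, 126 and 98.4 CPM in the glands and at 120.02, 158 and 115 CPM in the tumors. The groups overlapped, and *Ccr2* was not called while its ligands rose (log2 fold change 0.45, SE 0.23, 95% interval -0.08 to 0.98, adjusted p = 0.156, limma). *Ccr4*, the receptor of *Ccl22* on T cells, was at 31.1, 11.1 and 17.5 CPM in the glands and 9.49, 11.4 and 10.8 CPM in the tumors and was not called either (log2 fold change -0.76, adjusted p = 0.103, limma), except without M11640 (-1.11, adjusted p = 0.0180). *Ccr3*, the eotaxin receptor, had a log2 fold change of 0.73 (adjusted p = 0.463), and was called higher only without M11640 (1.71, adjusted p = 0.0152). In M11640 it stood at 11.4 CPM, against 0.813 and 1.37 CPM in the other glands.

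*Ccr6*, *Ccr7* and *Ccr9*, receptors found on lymphocytes, were the 3 called lower in tumors. *Ccr6*, the receptor of *Ccl20* on B cells and some T cells, was at 14.6, 4.13 and 6.16 CPM in the glands and at 0.186, 1.31 and 1.05 CPM in the tumors (log2 fold change -2.64, SE 0.52, adjusted p = 0.00410, limma). It fell in the tissue in which its ligand was called higher. *Ccr7*, the lymph node homing receptor and receptor of *Ccl19*, was at 24.6, 12.1 and 14.6 CPM in the glands and 1.12, 3.67 and 2.40 CPM in the tumors (log2 fold change -2.64, SE 0.40, adjusted p = 9.89e-04, limma). *Ccr9*, the receptor of *Ccl25*, was also lower (log2 fold change -1.05, adjusted p = 0.00402), and without M11035 its change of -0.91 was under the fold threshold. Exons of *Ccr9* overlap those of *Slc6a20a*, so its value is uncertain. *Ccr10*, which binds *Ccl27a* and *Ccl28*, was not called (-1.39, adjusted p = 0.0590), though it was called lower by edgeR (adjusted p = 0.0381), by DESeq2 (0.0233), with a pseudocount of 0.1 (0.0373) and without M9232 (0.0340).

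The atypical receptors bind chemokines without G protein signaling and remove or store them. All 4 were in the table, with 0 called higher, 2 called lower (14.5% and 13.7% of all genes) and a median log2 fold change of -1.28. *Ackr2* (listed as *Ccbp2*), a scavenger of inflammatory CC chemokines including *Ccl2* and *Ccl5*, was at 4.68, 5.95 and 5.47 CPM in the glands and at 0.558, 0.786 and 0.749 CPM in the tumors (log2 fold change -2.29, SE 0.28, adjusted p = 3.16e-04, limma). *Ackr1* (listed as *Darc*), which carries chemokines across venular endothelium, was lower as well (log2 fold change -1.92, SE 0.38, adjusted p = 0.00417, limma). Of 9 endothelial markers, 5 were called lower in the same tumors, and their part in these changes was not tested. *Ackr3* (listed as *Cxcr7*) and *Ackr4* (listed as *Ccrl1*) were not called (log2 fold changes -0.41 and -0.64, adjusted p = 0.403 and 0.0616). The value of *Ackr4* is uncertain, since its exons overlap those of *Acad11*.

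**Figure D5:**
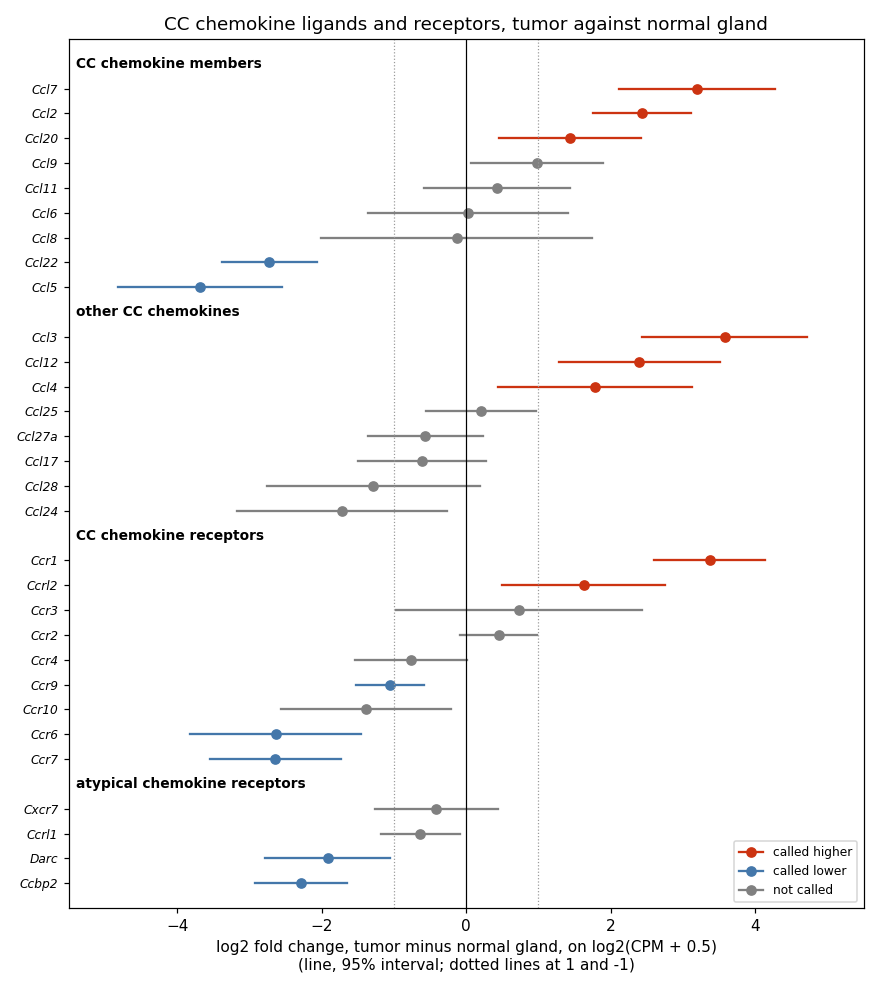
Log2 fold change of tumor minus gland on log2(CPM + 0.5) (horizontal axis, with the 95% interval as a line and dotted lines at the 2-fold threshold) for the CC ligands and receptors examined (vertical axis). Ccl7, Ccl3 and Ccr1 lie to the right with intervals clear of the threshold, and Ccl5, Ccl22, Ccr7 and Ackr2 (plotted as Ccbp2) to the left, with red for genes called higher, blue for genes called lower and grey for those not called.

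Cytokines and signaling genes that induce chemokines were examined as a list of 31, of which 26 were in the table. Of these, 6 were called higher and 1 lower (median log2 fold change 0.50), beside 14.5% and 13.7% of all genes. *Il1b*, a strong inducer of *Ccl2* and *Ccl20*, was at 10.2, 6.77 and 6.16 CPM in the glands and at 250.5, 296 and 376 CPM in the tumors (log2 fold change 5.24, SE 0.23, adjusted p = 1.81e-06, limma). The other genes called higher were *Il1a* (3.87), *Il6* (3.45), *Tslp* (3.20), *Il33* (1.87) and *Nfkbiz* (1.24), each with its log2 fold change in parentheses. Exons of *Il1b* overlap those of *Gm14047*, and exons of *Il1a* those of *Gm14023*, so the values of *Il1b* and *Il1a* are uncertain. *Lta*, a lymphocyte cytokine, was lower (-1.79, adjusted p = 0.0288, limma), though not without M11035 (0.0896), T11640 (0.102) or T9232 (0.0636). *Tnf* was at 4.68, 2.31 and 4.79 CPM in the glands and 6.70, 6.29 and 6.44 CPM in the tumors, and was not called (log2 fold change 0.71, adjusted p = 0.0883, limma).

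Enzymes that trim chemokines and proteoglycans that hold them on cell surfaces made up a list of 9, all in the table. Of these, 6 were called higher and 0 lower (median log2 fold change 1.54), where 14.5% and 13.7% of all genes were. The cell surface proteoglycan *Sdc1* (3.66) and the protease *Mmp9* (3.54) changed most on the log2 scale, followed by *Mmp12* (2.11), *Mmp2* (1.66), *Mmp8* (1.54) and the heparan sulfate enzyme *Ext1* (1.09). Exons of *Mmp12* overlap those of *Mmp1b*, so its value is uncertain. *Dpp4*, a peptidase that trims *Ccl5*, *Ccl11* and *Ccl22*, had a log2 fold change of 0.16 and was not called. Without T11640, *Mmp2*, *Mmp8* and *Mmp12* lost their calls (adjusted p = 0.0768, 0.0805 and 0.0517). *Mmp2* was also lost without T9232 (0.0872), *Mmp8* without M11640 (0.0712) or T9232 (0.0704), and *Ext1* without M11035, where its log2 fold change was 0.90.

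Summed markers of neutrophils, fibroblasts and epithelium were also higher in the tumors, though not every marker of these lists was. Neutrophil markers summed to 293, 229 and 620 CPM in the glands and 865, 1063 and 1425 CPM in the tumors, but their median log2 fold change was -0.78. *S100a8*, *S100a9*, *Csf3r* and *Cxcr2* (4 of 9) were called higher and *Ltf*, *Ngp* and *Mpo* (3) lower, with *Mpo* at 0 in T11640. *S100a9* alone averaged 683 CPM in tumors and 40.4 CPM in glands, and *Ltf* averaged 250 CPM in glands and 27.3 CPM in tumors. The sums of this list therefore mostly followed these genes, and which cells made their transcripts was not tested. Of 9 fibroblast markers, 4 were called higher (*Col1a1*, *Col1a2*, *Col3a1* and *Pdgfrb*), with sums of 991 to 3730.3 CPM in glands and 8564 to 9223 CPM in tumors. *Col1a1*, *Col1a2* and *Col3a1* averaged 1636, 2912 and 3037 CPM in tumors and 72.8, 241 and 618 CPM in glands. The tumor sums therefore mostly followed these collagen genes. *Dcn*, *Pdgfra* and *Fap* had log2 fold changes of 0.09, -0.23 and 0.03 and were not called. Of 9 mammary epithelial markers, 6 were called higher, with sums of 224 to 496 CPM in glands and 2006 to 2586 CPM in tumors, and neither list had a marker at 0. The part of these cells in the chemokine values was not tested.

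The similarity of the chemokines to each other over the 6 libraries is given as a description, since the libraries share tissue, mouse and depth. On log2(CPM + 0.5), Pearson's r was 0.966 between *Ccl5* and *Ccl22*, 0.953 between *Ccl2* and *Ccl7* and 0.958 between *Ccl2* and *Ccl20*. Among the genes that were not called, r was 0.922 between *Ccl6* and *Ccl11*, 0.910 between *Ccl9* and *Ccl11* and 0.886 between *Ccl6* and *Ccl8*. *Ccl9* had r of 0.745 with *Ccl6* and 0.580 with *Ccl8*, beside 0.804 with *Ccl7*, 0.748 with *Ccl20* and -0.756 with *Ccl22*, all called. *Ccl6* and *Ccl2* had r = 0.0907.

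Among 14712 genes averaging 1 CPM or more, those most like *Ccl2* over the 6 libraries were *Plaur*, the urokinase receptor (r = 0.999), *Irg1*, the itaconate-producing enzyme of activated macrophages (0.998), and *F7*, coagulation factor VII (0.998). *Ccl7* was most like *Stc1*, *Ifit3* and *Trim30a* (each r = 0.997), the last pair being interferon-induced genes. The closest genes to *Ccl22* were *S1pr1*, which lets lymphocytes leave lymph nodes, *Foxo1* and *Fcrla*, a B cell protein (each r = 0.997), and those to *Ccl5* were *Zfp783*, *AI462493* and *Fam117a* (each r = 0.997). For *Ccl8* they included *Tbxas1*, thromboxane synthase (r = 0.991), and *Cbr2* (0.987). For *Ccl9* they were *Cpd*, *Gtf2b* and *Lix1l* (r = 0.998, 0.997 and 0.992), for *Ccl6* *Calml4*, *Serpina3m* and *Kif3a* (0.991, 0.988 and 0.983), and for *Ccl11* *BC028528*, *Zcchc14* and *Rnase4* (0.981, 0.981 and 0.980).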

How the data were processed

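Total RNA of 3 tumors and 3 adjacent normal glands was amplified with the NuGEN Ovation system and sequenced as read pairs. The authors aligned pairs to mm9 with TopHat2 2.0.3, counted fragments per RefSeq gene with HTSeq 0.5.3p9 (strand setting not given in the sources used here), removed genes under 10 fragments and deposited a normalized signal, CPM on edgeR 3.6.1 effective library sizes (columns sum to 952151 to 1041170). Tests here used limma 3.58.1 (R 4.3.3), two-sided with a variance trend, of log2(CPM + 0.5), in all 6 libraries without a block, adjusted over 15280 genes, and were tested on simulated data. The design assumed CPM, and the unit was recorded as signal because column sums differ. Every deposited value was a whole number of fragments (100%, within 0.05 of a fragment), so edgeR 4.0.16 and DESeq2 1.42.0 served as alternatives on recovered fragments, with other pseudocounts (0.1 and 1), a minimum mean of 1 CPM, the plain library total, the mouse as a block, and each library left out in turn.

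Gland and tumor of a number are from 1 animal, which pairs the samples. Over 14712 genes the deviations of the 2 libraries of a mouse from their group means correlated with r = 0.107, 0.151 and 0.0168. No replicates were copies (lowest chi-square per degree of freedom 13.0). The members and gene lists were chosen with earlier results of these data known. All members, other CC ligands and receptors, called inducers and processing genes, and the genes with the highest r to a member of at least 10 CPM are named, except for some that are not reported here, which were also left out of the receptor counts. *Tnf* and *Dpp4*, which were not called, and the markers named individually were chosen after their values were seen. Positions and exon lengths came from GENCODE vM1 (mm9), transcript similarity (at least 100 bp) from BLAST 2.17.0 and promoters from RefSeq (GRCm38.p6).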

Additional observations from a re-analysis of the deposited data

How the results depend on the processing

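Over the 14 alternatives, *Ccl2*, *Ccl7*, *Ccl5* and *Ccl22* kept their calls, and the 9 chemokines gave 2 to 3 called higher and 2 lower. With the mouse as a replicate block in limma all 5 calls stood (3 higher, 2 lower), and no call among ligands and receptors changed. *Ccl20* was tested in 13 (its mean was under 1 CPM) and was not called in 5, at log2 fold changes of 0.94 (pseudocount 1) and 1.26 to 1.33 (4 of the fits with a library left out, which together ranged from 1.26 to 1.72). Its estimate depended on the scale, at 2.88 with a pseudocount of 0.1, 3.20 by edgeR and 3.46 by DESeq2. The estimates of *Ccl6* turned to -0.15 (edgeR), -0.0049 (edgeR with the block) and -0.15 (DESeq2). With a library left out, *Ccl6* lay between -0.69 and 0.50, *Ccl8* between -1.10 and 0.62, *Ccl11* between -0.09 and 0.86 and *Ccl9* between 0.51 and 1.35, so the direction of *Ccl6*, *Ccl8* and *Ccl11* is not set by these libraries. Values with a reversed sign were -0.6941, -0.1033 and -0.3078 for *Ccl6*, 0.0773, 0.6190 and 0.3543 for *Ccl8* and -0.0934 for *Ccl11*. Of other CC ligands, 0 were called lower by limma and 1 each by edgeR, edgeR with the block and DESeq2 (*Ccl24*), or 0 to 2 with a library left out. CC receptors called higher were 2, and 1 to 3 with a library left out. Inducers called lower were 1, but 3 by edgeR and by DESeq2 and 0 to 3 with a library left out, and processing genes called higher were 6, and 3 to 6 with a library left out. The cause was not tested. With 3 mice, and 0 to 10 *Ccl20* fragments a library, depth and number limit what can be said of the scarce genes.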
